A study of Danio rerio with 93 samples.

Results

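Disperse Red 9 at 45 μM was compared with its vehicle control in zebrafish embryos at 48 h post fertilization (hpf). The comparison was defined by the sample labels and held 7 of the 93 embryos of the series, 3 exposed embryos (R1, R2 and R3) and 4 control embryos (R1, R2, R3 and R4). Each embryo was sequenced on its own. Disperse Red 9 is 1-(methylamino)anthraquinone, a red anthraquinone dye that has been used to color smoke. All concentrations given here are nominal, and the study measured lower ones in its dye solutions. All embryos were of the 5D strain, carried no added allele, were exposed from 6 hpf and were kept in 0.64% DMSO, the control embryos in DMSO alone and the exposed embryos in DMSO with 45 μM dye. Replicate numbers name separate embryos, and no label says whether they came from separate clutches or wells on separate days. The p-values therefore measure only the spread between embryos, estimated in 1 fit of all 19 Disperse Red 9 embryos, control and exposed.

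At this age the zebrafish eye is still being built. Lens fiber cells fill with crystallins, the soluble proteins that make the lens clear, and the first photoreceptors switch on the proteins that turn light into a nerve signal. Cartilage and the collagen fibers of the fin fold are laid down in the same period, while the retina, brain and fins still hold dividing cells. A chemical that changes the make-up of the embryo, or its pace of growth, can therefore be read in the RNA of these tissues, and a chemical that damages DNA can be read in the targets of p53, the transcription factor that stops or removes damaged cells.

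The 3 exposed embryos held less RNA of lens crystallins, photoreceptor proteins, cartilage collagens and fin fold actinodins than the 4 control embryos, and more RNA of mki67, brca2, blm and mdm2, genes of dividing cells and of the response to DNA damage. Of 17869 genes tested, 252 (1.41%) were differentially expressed genes (DEGs), 113 upregulated (0.632%) and 139 downregulated (0.778%). Genes were called DEGs in edgeR's quasi-likelihood test where the change exceeded 1.5-fold and p, adjusted after Benjamini and Hochberg, was under 0.05. Upregulated DEGs ranged from 0.60 to 4.52 in log2 fold change with a median of 0.90, and 41 of them exceeded a 2-fold change. Downregulated DEGs had a median log2 fold change of -1.33, and 100 of them exceeded a 2-fold change. No exposed embryo overlapped the range of the controls in any DEG. Over all genes tested, 8.36% had no overlap with the exposed embryos higher and 11% with the exposed embryos lower. Of the 17869 log2 fold changes, 8249 lay above 0 and 9618 below 0. At an unadjusted p under 0.05 there were 2731 genes, 1331 higher and 1400 lower.

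The number of DEGs fell whichever embryo was left out. Without exposed embryo R2 only 6 DEGs were left, all downregulated, and without R1 or R3 there were 47 and 93. Leaving out control embryo R1, R2, R3 or R4 left 107, 55, 30 and 111 DEGs. Each of these comparisons also had 1 embryo fewer in a group, and the part of group size in the counts was not tested. Of the 252 DEGs, 24 were called in at least 6 of these 7 comparisons, 10 upregulated and 14 downregulated, and 6 were called in all 7. Those 6 were COL9A1, GNG13, syt5b, zgc:112285, si:dkey-57a22.15 and si:ch211-255g12.6. In contrast, 96 of the 252 were called in none of the 7 comparisons and 58 in only 1. Genes named below that were called in none included brca2, palb2, atp1a1a.5, znf1112, si:ch211-57n23.4, si:dkey-11o15.4, CRX, LIM2, SYN2, htr1aa, NEUROD2, and2, FOXQ1 and s100a10a. The exposed embryos were also compared with 12 control embryos of 3 other dyes, those of Solvent Yellow 33, of Solvent Red 169 and of Disperse Blue 14. Below, these are called the other 3 dyes or the other dyes. Control embryos of Solvent Violet 47, a further dye of the series, were left out. Against the 12 control embryos there were 5 DEGs (0.0276% of 18112 genes), 4 upregulated (0.0221%) and 1 downregulated (0.00552%). The 3 of these that were also among the 252 were nes, psip1b and si:dkey-185m8.2, all upregulated.

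**Figure D1:**
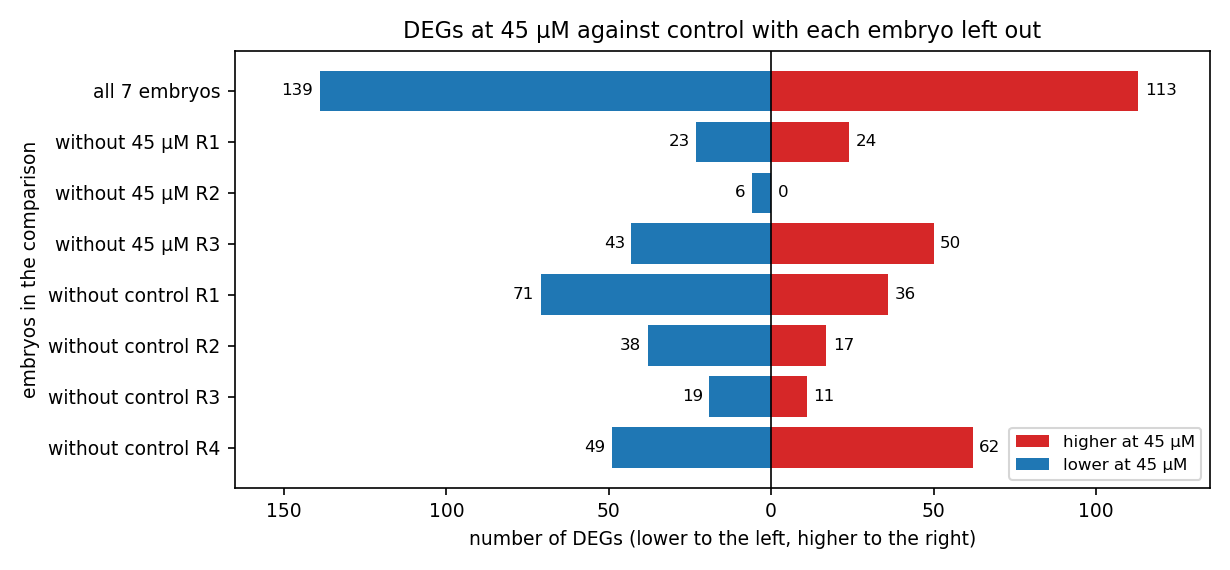
Number of DEGs at 45 μM against control with all 7 embryos and with each embryo left out in turn (bars to the right are upregulated, bars to the left downregulated, on a linear axis from 0). All 7 embryos gave 113 and 139 DEGs, and leaving out exposed embryo R2 gave 0 and 6.

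The embryos held between 30853270 and 41066476 counts, with 33435393, 30853270 and 36600019 in exposed embryos R1, R2 and R3, so that 3 counts in an embryo corresponded to at most 0.0972 CPM (counts of a gene scaled to the library size of its embryo). Within its group, control embryo R4 correlated least with the others across genes, with a median r of 0.932 against 0.974 to 0.978 for the other controls, and the exposed embryos had 0.974, 0.959 and 0.963. The 3 embryos of the 25 μM treatment group stood apart from each other, with 0.898 to 0.935, and entered the fit that sets the spread of every gene. A fit without them, chosen after seeing the data, gave 1011 DEGs, among them 250 of the 252. All 3 exposed libraries carried another second library index than the 4 controls, so index and exposure cannot be told apart in this comparison. Markers of 11 tissues of the embryo were detected, with 37 of 41 marker genes above 0 in all 7 embryos and 0 at 0 throughout. Reads of close gene copies were divided between them by a model, and symbols in capitals can stand for more than 1 zebrafish copy.

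Embryo R2 carried the largest upregulated values. It was the highest exposed embryo in 89 of 113 upregulated DEGs (78.8%) and the lowest in 105 of 139 downregulated DEGs (75.5%). Over all genes tested it was the highest exposed embryo in 41.9% and the lowest in 43.2%, while R3 was the highest in 40.3% and R1 in 17.8%. R1 was the highest exposed embryo in 9 upregulated DEGs and R3 in 15. Over all 17869 genes, R2 exceeded the next exposed embryo by more than 2-fold in 504, R3 in 452 and R1 in 104, and among the 113 upregulated DEGs R2 did so in 3 and the others in 0.

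Below, CPM of the exposed embryos are given in the order R1, R2, R3 and CPM of the control embryos in the order R1, R2, R3, R4. CPM of genes are scaled for library size and TMM factor, and the sums of tissue markers for library size alone. Differences are log2 fold changes at 45 μM against control with their standard error (SE). Counts of DEGs in a gene list stand beside the shares over all genes tested, 0.632% upregulated and 0.778% downregulated.

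isg15, a ubiquitin-like protein induced by interferon, had the largest rise among DEGs. Its levels were 0.758, 24.3 and 1.62 CPM in the exposed embryos and 0.542, 0.325, 0.295 and 0.370 CPM in the control embryos. The groups did not overlap, but R1 was close to the highest control and R2 was far above every other embryo. The log2 fold change was 4.52 ± 0.83 (adjusted p = 0.0205) with all embryos and 1.63 (adjusted p = 0.203) without R2. FOSL1, a Fos-related subunit of the AP-1 transcription factor, was at 2.97, 83.3 and 5.76 CPM in the exposed embryos and at 2.299, 2.11, 2.58 and 2.83 CPM in the control embryos. Here too R1 barely exceeded the highest control, and the log2 fold change of 3.64 ± 0.87 (adjusted p = 0.0466) became 0.83 (adjusted p = 0.763) without R2.

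The genes in which R2 stood highest above R1 and R3 included several of innate immunity that were not DEGs. batf2, a leucine zipper factor of the AP-1 family, was at 0.146, 10.24 and 0.707 CPM against 0.310, 0.244, 0.761 and 0.303 CPM in controls. cxcl18b, a chemokine that attracts neutrophils in zebrafish, was at 1.28, 26.7 and 2.62 CPM against 1.42, 0.813, 1.69 and 1.08 CPM. cd83, a surface protein of activated immune cells, was at 0.845, 9.75 and 0.628 CPM against 0.207, 0.488, 0.638 and 0.808 CPM. In each of these R2 alone was far from the controls and R1 or R3, or both, lay within or below their range. irf1b, an interferon regulatory factor, was at 1.25, 15.99 and 2.83 CPM against 0.697, 1.11, 1.60 and 1.95 CPM. IRAK3, an inhibitor of signaling by Toll-like receptors, was at 1.49, 10.17 and 1.26 CPM against 1.16, 1.08, 1.33 and 1.01 CPM. si:ch73-335l21.4 was at 1.40, 17.1 and 1.78 CPM against 2.12, 2.06, 1.52 and 1.48 CPM. In R2 these 3 genes lay above every other embryo, while R1 and R3 lay near or within the range of the controls. The adjusted p of the 6 genes ranged from 0.0795 for cd83 to 0.163 for batf2 with all embryos, and without R2 the log2 fold change of si:ch73-335l21.4 was -0.17 (adjusted p = 0.963).

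**Figure D2:**
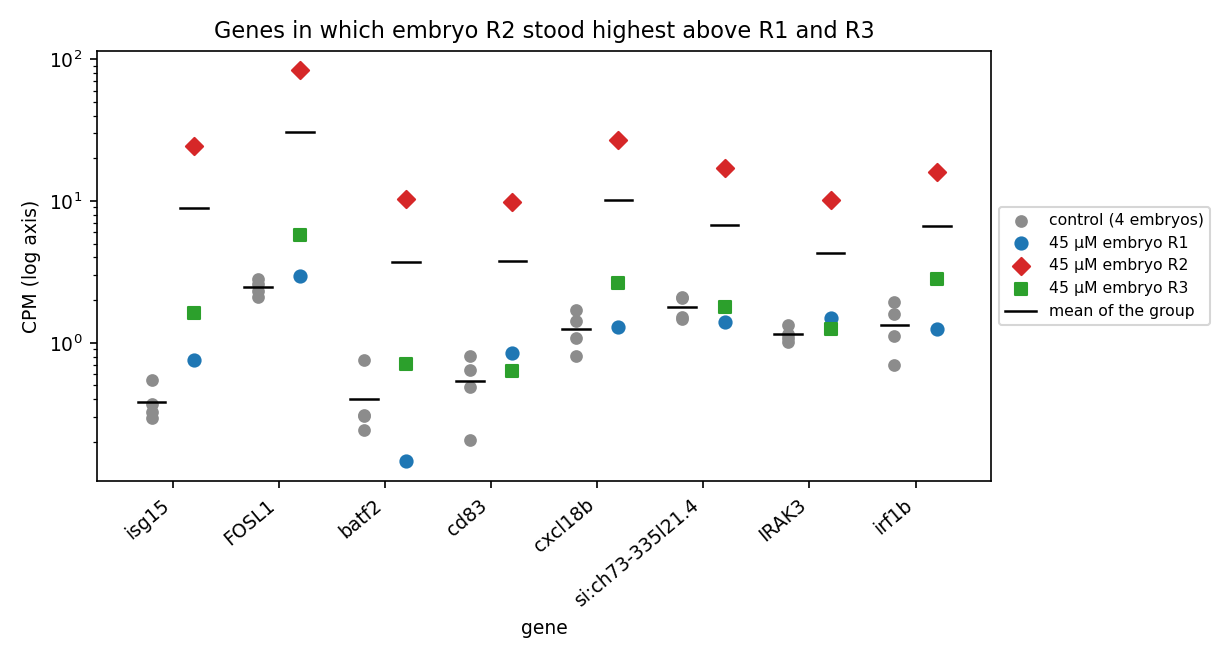
CPM on a log axis of the 8 genes in which exposed embryo R2 stood highest above R1 and R3, with 1 point per embryo and black lines at the group means. R2 was at 83.3 CPM in FOSL1 and 24.3 CPM in isg15. The mean of the exposed group lay far above R1 and R3 in all 8 genes, which follows from how they were picked.

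Single control embryos of 2 other dyes held several of these genes at high levels. On a common scale, isg15 reached 11.7 CPM and FOSL1 62.8 CPM in Solvent Red 169 control embryo R1, and 8.46 and 24.45 CPM in control embryo R2 of that dye, against medians of 0.395 and 2.51 CPM over the 12 control embryos of the other 3 dyes. cxcl18b reached 15.2 CPM in Disperse Blue 14 control embryo R1. irf1b reached 10.99 CPM and si:ch73-335l21.4 11.9 CPM in Solvent Red 169 control embryo R1, and IRAK3 5.62 CPM in Disperse Blue 14 control embryo R1. batf2 and cd83 stayed lower, at no more than 2.64 and 1.92 CPM in the 12 embryos against 10.46 and 9.96 CPM in exposed R2 on that scale. Neither isg15 nor FOSL1 was a DEG against these 12 embryos (adjusted p = 0.282 and 0.292).

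The list of interferon response genes had 1 upregulated DEG, isg15, among 29 members tested, and none was downregulated. Its median log2 fold change was 0.70 against -0.04 over all genes, 23 of 29 members lay above 0, and the list medians were 0.40, 0.82 and 0.54 in R1, R2 and R3 relative to the control mean. irf3, a transcription factor that switches on interferon genes, was named after its values were seen and was at 1.60, 3.06 and 2.57 CPM against 1.06, 0.921, 1.01 and 0.404 CPM (log2 fold change 1.49 ± 0.37, adjusted p = 0.0534). Every exposed embryo lay above every control in irf3, R2 the most, without passing the threshold. Of 44 inflammation genes none was a DEG, the median was 0.27, and the list medians were 0.03, 0.59 and 0.19 in R1, R2 and R3. Without R2 the medians of these lists were 0.38 and 0.05. MMP9, a matrix-degrading protease of inflamed tissue, was at 20.4, 137 and 49.4 CPM against 9.58, 8.69, 9.57 and 9.70 CPM (adjusted p = 0.0769). il1b, a cytokine that starts inflammation, was at 1.19, 8.03 and 3.17 CPM against 0.852, 0.515, 0.859 and 0.875 CPM (adjusted p = 0.132). Both genes, named after their values were seen, were above all Disperse Red 9 controls in each exposed embryo and highest in R2. Summed markers of macrophages and neutrophils were between 52.6 and 133 CPM in the exposed embryos and between 88.4 and 115 CPM in the controls, with 0 DEGs, and their part in these values was not tested.

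The other large rises were less concentrated in R2. si:ch211-214p13.8 was at 8.57, 16.6 and 6.20 CPM in the exposed embryos and at 2.01, 1.16, 1.87 and 1.82 CPM in the control embryos (log2 fold change 2.60 ± 0.39, adjusted p = 0.00630). zgc:194210 was at 4.22, 8.19 and 5.60 CPM against 1.91, 0.813, 1.62 and 1.38 CPM (2.06 ± 0.34, adjusted p = 0.00995). In both, the lowest exposed embryo was more than 2-fold above the highest control, and each stayed a DEG in every comparison with an embryo left out except that without R2 (adjusted p = 0.0604 and 0.0882). PRTG, protogenin, a receptor of the immunoglobulin family found in the early neural tube, was at 5.48, 22.1 and 15.3 CPM against 3.15, 3.196, 1.91 and 1.01 CPM (2.62 ± 0.51, adjusted p = 0.0227). si:ch211-57n23.4 was at 4.11, 19.2 and 9.48 CPM against 2.196, 1.57, 0.687 and 0.135 CPM (3.23 ± 0.74, adjusted p = 0.0392). These 2 genes also varied among the controls, where R4 was lowest. TDRD6 (tudor domain protein of germ cells) was at 6.35, 7.38 and 6.70 CPM against 2.04, 3.36, 3.04 and 1.89 CPM (1.40 ± 0.25, adjusted p = 0.0194). The 3 exposed embryos were close together in TDRD6, unlike in isg15 or FOSL1.

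GCNT4 (ENSDARG00000044755, 1 of 3 genes of that symbol), an enzyme that branches the sugar chains of mucins, was at 9.76, 11.5 and 5.34 CPM against 3.90, 3.71, 2.72 and 1.48 CPM (1.58 ± 0.34, adjusted p = 0.0321). si:dkey-11o15.4 was the exception to the place of R2 among the large rises, with R1 highest at 3.64, 2.93 and 1.54 CPM against 0.775, 0.515, 0.933 and 0.572 CPM (1.94 ± 0.47, adjusted p = 0.0487). znf1112, a zinc finger protein, was at 6.50, 7.74 and 5.60 CPM against 2.35, 2.38, 2.97 and 2.26 CPM (1.41 ± 0.32, adjusted p = 0.0393). On the common scale its median in the 12 control embryos of the other dyes was 5.79 CPM, within the exposed range of 5.61 to 7.90 CPM. Against these 12 its log2 fold change was 0.19 (adjusted p = 0.801). Among 167 genes tested whose symbol begins with znf, a group picked after its values were seen, 9 were upregulated DEGs by 0.65 to 1.41 on the log2 scale. In this group 1 was a downregulated DEG, 134 lay above 0 and the median was 0.51. Over all 17869 genes tested 0.632% were upregulated DEGs, 8249 lay above 0 and the median was -0.04.

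Several genes of DNA repair and of dividing cells were upregulated, by about 1.6-fold to 2.2-fold. mki67, a protein of dividing cells that coats mitotic chromosomes, was at 1857, 2025 and 1759 CPM in the exposed embryos and at 1078, 980.1, 1023 and 865.6 CPM in the control embryos. All 3 exposed embryos were above all controls, and the log2 fold change was 0.93 ± 0.15 (adjusted p = 0.00737). It remained a DEG with each of the 6 embryos other than R2 left out, and had an adjusted p of 0.0691 without R2. knl1, a scaffold of the kinetochore named after its values were seen, was at 192, 231 and 200 CPM against 108, 108, 113 and 111 CPM (0.92 ± 0.13, adjusted p = 0.00556). dnmt3bb.2, a DNA methyltransferase also named after its values were seen, was at 82.6, 101 and 86.9 CPM against 50.4, 46.6, 48.2 and 45.9 CPM (0.91 ± 0.13, adjusted p = 0.00592). In knl1 and dnmt3bb.2 the controls differed little and R2 was again the highest exposed embryo.

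Of 59 genes of DNA damage repair, 4 were upregulated DEGs and none was downregulated. The list median was 0.35, 48 members lay above 0, and the list medians of R1, R2 and R3 were 0.29, 0.16 and 0.53, so that R3 and not R2 was highest. brca2, a gene of DNA repair by homologous recombination, was at 50.3, 70.4 and 47.9 CPM against 31.6, 28.6, 25.995 and 17.0 CPM (1.12 ± 0.25, adjusted p = 0.0382). palb2, its binding partner, was at 9.24, 9.13 and 9.90 CPM against 5.53, 5.36, 6.43 and 6.09 CPM (0.69 ± 0.16, adjusted p = 0.0420). blm, a helicase that unwinds recombination intermediates, was at 45.7, 49.1 and 42.3 CPM against 25.8, 24.1, 23.9 and 14.8 CPM (1.04 ± 0.19, adjusted p = 0.0214). Control R4 was the lowest embryo in both brca2 and blm, and the exposed embryos were all above the other 3 controls as well. mdc1, an adaptor that gathers repair proteins at breaks, was at 88.9, 98.0 and 77.4 CPM against 62.5, 53.3, 50.1 and 37.8 CPM (0.79 ± 0.17, adjusted p = 0.0323). Without R2 none of the 4 was a DEG (adjusted p from 0.134 for blm to 0.247 for brca2), although the list median was then 0.43. The calls did not depend on R2 alone. Over the 7 comparisons with an embryo left out, brca2 and palb2 were DEGs in 0, mdc1 in 1 and blm in 4. Against the 12 control embryos of the other dyes the list had no DEG and a median of 0.12. On the common scale the list medians of these 12 had a median of 0.094, below the exposed embryos at 0.34, 0.23 and 0.58. The highest of the 12 reached 0.80 and 1.13, above every exposed embryo. None of 36 DNA replication genes was a DEG, with a median of 0.22, and mki67 was the only DEG among 29 genes of mitosis, with a median of 0.15 and list medians of 0.19, -0.13 and 0.41 in R1, R2 and R3.

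Of 41 p53 targets, 1 was an upregulated DEG and none was downregulated, with 28 members above 0 and a median of 0.31, which was 0.14 without R2. mdm2, the ubiquitin ligase that p53 induces and that removes p53, was at 86.1, 114 and 84.5 CPM against 55.9, 42.7, 47.1 and 60.2 CPM (0.88 ± 0.16, adjusted p = 0.0214). cdkn1a, the inhibitor of cell division that p53 induces, was at 3.76, 9.36 and 4.76 CPM against 3.18, 1.90, 1.87 and 1.75 CPM. Its groups did not overlap, but R1 was near control R1, and the log2 fold change of 1.45 ± 0.36 missed the threshold (adjusted p = 0.0534). In the 12 control embryos of the other dyes mdm2 had a median of 55.7 CPM and cdkn1a of 3.11 CPM. Both medians lay below every exposed embryo on the common scale. The highest values of the 12, 221 CPM in mdm2 and 16.03 CPM in cdkn1a, lay above every exposed embryo. Neither gene was a DEG against the 12 (adjusted p = 0.601 and 0.749).

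The lens held the lowest median of the 35 lists. Of 50 lens genes tested, 7 were downregulated DEGs and none was upregulated, 46 lay below 0, and the median log2 fold change was -1.31. The list medians were -1.22, -1.96 and -0.95 in R1, R2 and R3, and between -0.14 and 0.21 in the controls. crygm2d11, a gamma crystallin of fish lenses, was at 0.728, 0.780 and 1.02 CPM in the exposed embryos and at 23.9, 46.1, 32.1 and 23.7 CPM in the control embryos. The 3 exposed embryos were close together and more than 20-fold below the lowest control, and the log2 fold change was -5.21 ± 0.70 (adjusted p = 0.00375), with an adjusted p of 0.0515 without R2. crygm2d14 was at 38.5, 27.4 and 41.5 CPM against 157, 192, 190 and 151 CPM (-2.27 ± 0.43, adjusted p = 0.0214). crygm2d16 was at 14.3, 7.35 and 15.5 CPM against 72.7, 148, 112 and 55.3 CPM (-2.97 ± 0.60, adjusted p = 0.0268). In both, R2 was the lowest embryo. crygm5 was at 1.02, 1.92 and 0.942 CPM against 4.78, 3.47, 5.42 and 4.65 CPM (-1.83 ± 0.35, adjusted p = 0.0214), and there R2 was the highest exposed embryo.

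The crygm2d genes lay lower throughout, and these copies are close enough to share reads. All 21 crygm2d genes tested lay below 0, by -1.13 to -5.21, and 5 were DEGs. All 21 had no overlap between the groups, against 11% of all genes tested with the exposed embryos lower. R2 was the lowest embryo in 20. LIM2, a membrane protein of lens fibers named after its values were seen, was at 5.24, 3.77 and 6.47 CPM against 13.4, 14.6, 18.7 and 15.0 CPM (-1.58 ± 0.38, adjusted p = 0.0467). Of the 50 lens genes 4 lay above 0, the largest by 1.68 in log2 fold change, and none of them was a DEG. In 2 of the 50, every exposed embryo lay above every control, and in 36 every exposed embryo lay below every control. Over all genes tested these shares were 8.36% and 11%. CRYAA and pitx3, both named after their values were seen, had small log2 fold changes and were not DEGs. In CRYAA every exposed embryo lay above every control, and in pitx3 the groups overlapped. CRYAA, the alpha crystallin chaperone, was at 54.1, 64.9 and 52.9 CPM against 48.7, 47.6, 47.8 and 42.2 CPM (0.30 ± 0.29, adjusted p = 0.651). pitx3, a transcription factor of the lens, was at 17.7, 21.3 and 15.4 CPM against 18.4, 18.4, 16.7 and 25.1 CPM (-0.12 ± 0.18, adjusted p = 0.788). The summed lens markers were between 562 and 614 CPM in the exposed embryos and between 807 and 1019 CPM in the controls. In whole embryos, fewer cells of a type and less RNA per cell cannot be told apart. None of the lens genes was a DEG without R2, when the list median was -1.04.

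**Figure D3:**
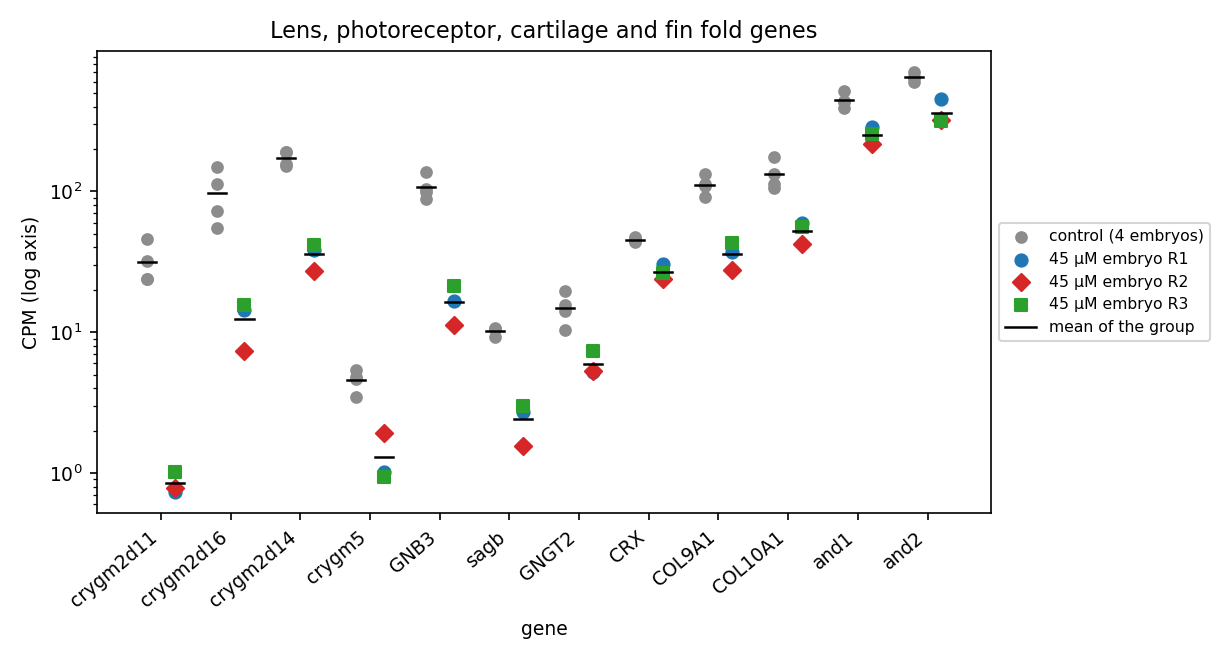
CPM on a log axis of 4 lens, 4 photoreceptor, 2 cartilage and 2 fin fold genes that were downregulated at 45 μM, with 1 point per embryo and black lines at the group means. The exposed embryos lay below all 4 control embryos in each gene, and R2 was the lowest of the 3 in 8 of the 12 genes named on the axis.

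Of 38 photoreceptor and retina genes tested, 7 were downregulated DEGs and none was upregulated. The median was -0.68, 33 lay below 0, and the list medians were -0.54, -0.82 and -0.61 in R1, R2 and R3. GNB3, a beta subunit of the cone G protein transducin, was at 16.7, 11.3 and 21.4 CPM in the exposed embryos and at 99.5, 105, 88.3 and 138 CPM in the control embryos. The highest exposed embryo was more than 4-fold below the lowest control, with a log2 fold change of -2.71 ± 0.42 (adjusted p = 0.00675), and GNB3 stayed a DEG with each embryo other than R2 left out (adjusted p = 0.0749 without R2). sagb, a visual arrestin that shuts off the light response, was at 2.71, 1.56 and 2.98 CPM against 10.5, 9.21, 10.7 and 10.6 CPM (-2.08 ± 0.40, adjusted p = 0.0214). GNGT2 (ENSDARG00000010680, 1 of 2 genes of that symbol), a transducin gamma subunit, was at 5.24, 5.27 and 7.36 CPM against 10.31, 15.5, 14.2 and 19.5 CPM (-1.32 ± 0.25, adjusted p = 0.0214). CRX (ENSDARG00000043483), a homeobox factor that turns on photoreceptor genes, was at 30.3, 23.9 and 26.3 CPM against 44.3, 47.2, 43.5 and 46.4 CPM (-0.76 ± 0.16, adjusted p = 0.0320). The controls were tight in sagb and CRX, and no exposed embryo came near them.

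Further genes of the retina were downregulated outside the list. rs1a, a retinoschisin that holds retinal layers together, was at 2.04, 2.08 and 2.28 CPM against 17.5, 20.6, 14.9 and 24.9 CPM (-3.19 ± 0.61, adjusted p = 0.0214). GNG13, a G protein gamma subunit found in bipolar cells of the mammalian retina and named after its values were seen, was at 21.6, 14.3 and 23.4 CPM against 72.6, 89.2, 73.3 and 91.7 CPM (-2.05 ± 0.25, adjusted p = 0.00196), and it remained a DEG without R2 (-1.86, adjusted p = 0.0195). Not all retina genes were lower, as RPE65 and atoh7 show, both named after their values were seen. RPE65 (ENSDARG00000054420), an enzyme of the visual cycle, was at 9.35, 12.5 and 10.6 CPM against 8.68, 8.07, 7.29 and 7.88 CPM (0.44 ± 0.16, adjusted p = 0.181). atoh7, which starts the formation of retinal ganglion cells, was at 27.9, 43.4 and 21.7 CPM against 12.0, 11.2, 18.7 and 36.1 CPM (0.67 ± 0.42, adjusted p = 0.458), with control R4 among the exposed embryos.

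The 12 control embryos of the other dyes varied widely in these genes. On the common scale GNB3 was between 0.507 and 178.5 CPM in them and crygm2d11 between 0.116 and 162.5 CPM, and the lowest values were those of Solvent Red 169 control embryos R1 or R2. The lens list medians of the 12 ranged from -1.70 to 1.44 relative to the Disperse Red 9 control mean, with a median of -0.12, against -1.17, -1.89 and -0.90 in the exposed embryos on that scale, so that R1 and R3 lay within the range of the 12 and R2 below it. The photoreceptor list medians of the 12 ranged from -1.43 to 0.45, with a second lowest of -1.37 and a median of 0.07. The exposed embryos had -0.49, -0.745 and -0.56 on that scale, all within the range of the 12. Against these 12 embryos none of the lens or photoreceptor genes was a DEG, and the list medians were -1.16 and -0.49.

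Of 46 genes of collagens and cartilage, 4 were downregulated DEGs and none was upregulated. The median was -0.43, 38 lay below 0, and the 3 exposed embryos were close together with list medians of -0.40, -0.45 and -0.45. COL9A1, a chain of the type IX collagen of cartilage, was at 37.2, 27.6 and 42.9 CPM in the exposed embryos and at 91.9, 113, 109 and 133 CPM in the control embryos. Every exposed embryo was more than 2-fold below the lowest control. The log2 fold change was -1.64 ± 0.21 (adjusted p = 0.00196), and COL9A1 remained a DEG with each of the 7 embryos left out, at an adjusted p of 0.0195 without R2. COL10A1 (ENSDARG00000054753, 1 of 2 genes of that symbol), the collagen of maturing cartilage and of early bone in fish, was at 59.6, 42.4 and 55.7 CPM against 106, 112, 134 and 175 CPM (-1.33 ± 0.21, adjusted p = 0.00817). and1 and and2 encode actinodins, proteins of the stiff fibers of the fish fin fold. and1 was at 285, 217 and 256 CPM against 393, 438, 432 and 520 CPM (-0.82 ± 0.17, adjusted p = 0.0269). and2 was at 451, 323 and 315 CPM against 599, 708, 646 and 642 CPM (-0.84 ± 0.19, adjusted p = 0.0392). Against the 12 control embryos of the other dyes COL9A1 and COL10A1 were not DEGs (adjusted p = 0.0996 and 0.606), and the list median was -0.31. On the common scale the list medians of the 12 ranged from -0.61 to 0.18, with a second lowest of -0.26. The exposed embryos had -0.345, -0.377 and -0.402 on that scale. The summed markers of notochord and cartilage included COL9A1. They were between 935 and 1117 CPM in the exposed embryos and between 1547 and 1607 CPM in the controls.

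A few neuronal genes were downregulated. Of 70 neurotransmission genes 3 were downregulated DEGs and none was upregulated, with a median of -0.26 and 51 below 0. The list medians per embryo overlapped, at -0.10, -0.09 and -0.25 in R1, R2 and R3 and at 0.19, 0.08, 0.08 and -0.34 in the controls, where R4 was lower than every exposed embryo. SNAP25, which drives the fusion of synaptic vesicles, was at 24.3, 18.2 and 25.2 CPM against 44.1, 43.5, 57.0 and 72.6 CPM (-1.27 ± 0.24, adjusted p = 0.0214). SYN2, a synapsin that coats synaptic vesicles, was at 40.0, 34.4 and 40.3 CPM against 54.0, 57.5, 67.9 and 76.2 CPM (-0.74 ± 0.17, adjusted p = 0.0432). htr1aa, a serotonin receptor, was at 1.72, 1.24 and 1.52 CPM against 2.94, 2.95, 2.53 and 3.94 CPM (-1.05 ± 0.25, adjusted p = 0.0447). Control R4 was the highest embryo in all 3, and the fold changes were smaller without it, at -1.06, -0.61 and -0.88. Against the 12 control embryos of the other dyes they were -0.73, -0.41 and -0.55, without a DEG (adjusted p = 0.424, 0.501 and 0.558). syt5b, a synaptotagmin named after its values were seen, had the lowest adjusted p of all genes. It was at 15.9, 11.7 and 14.7 CPM against 52.0, 56.6, 53.6 and 69.0 CPM (-2.03 ± 0.22, adjusted p = 9.18e-04), and it remained a DEG without R2 (-1.92, adjusted p = 0.0173).

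Of 83 neural transcription factors, 3 were downregulated DEGs and none was upregulated, with a median of -0.12. Over all genes tested 0.778% were downregulated DEGs. ISL1, a factor of motor and retinal neurons, was at 68.9, 55.5 and 69.1 CPM against 103, 112, 107 and 134.95 CPM (-0.83 ± 0.15, adjusted p = 0.0194). PRDM8 was at 12.0, 7.41 and 13.2 CPM against 20.3, 21.1, 31.1 and 36.0 CPM (-1.32 ± 0.25, adjusted p = 0.0214). NEUROD2, which promotes the maturation of neurons, was at 0.903, 0.618 and 1.23 CPM against 2.53, 3.49, 3.41 and 2.02 CPM (-1.64 ± 0.37, adjusted p = 0.0392). R2 was the lowest embryo in all 3 factors. Against the 12 control embryos of the other dyes the log2 fold changes of ISL1, PRDM8 and NEUROD2 were -0.28, -0.63 and -1.32. None of these was a DEG there (adjusted p = 0.6015, 0.452 and 0.528). nes, the intermediate filament nestin of neural progenitors, moved the other way and was named after its values were seen. It was at 140, 226 and 156 CPM against 88.2, 77.003, 73.5 and 72.0 CPM (1.16 ± 0.18, adjusted p = 0.00737), and it was also a DEG against the 12 control embryos of the other dyes (1.04, adjusted p = 0.00237). Summed markers of neurons were between 470 and 798 CPM in the exposed embryos and between 579 and 713 CPM in the controls.

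In the skin and its ion-transporting cells both directions occurred. Of 43 ionocyte genes, 2 were upregulated and 1 was downregulated, with a median of -0.14. atp1a1a.5, a catalytic subunit of the sodium pump, was at 11.5, 11.02 and 12.3 CPM against 5.30, 5.44, 3.85 and 3.33 CPM (1.37 ± 0.31, adjusted p = 0.0382). slc12a10.3, a cotransporter of the family that carries sodium and chloride, was at 4.17, 3.41 and 4.24 CPM against 2.196, 1.46, 1.15 and 1.31 CPM (1.36 ± 0.28, adjusted p = 0.0282). In these 2 genes R2 was the lowest exposed embryo, and all 3 exposed embryos exceeded the 12 control embryos of the other dyes without passing the test there (adjusted p = 0.0860 for each). ATP1B2 (ENSDARG00000034424, 1 of 2 genes of that symbol), a beta subunit of the sodium pump, was at 8.65, 6.47 and 7.72 CPM against 12.5, 13.9, 14.7 and 17.9 CPM (-0.95 ± 0.18, adjusted p = 0.0214). Summed ionocyte markers were between 124 and 214 CPM in the exposed embryos and between 206 and 254 CPM in the controls, with 0 DEGs among them.

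Of 44 keratin and epidermis genes, 1 was upregulated and 2 were downregulated, with a median of -0.24 and 33 below 0. anxa1b, a membrane-binding annexin, was at 182, 189 and 180 CPM against 60.6, 63.0, 71.3 and 107 CPM (1.28 ± 0.26, adjusted p = 0.0277). krt1-19d, a keratin, was at 1.11, 0.520 and 2.28 CPM against 8.78, 9.43, 8.39 and 9.70 CPM (-2.79 ± 0.58, adjusted p = 0.0284). The exposed embryos agreed closely in anxa1b and spread over 4-fold in krt1-19d, where the controls were tight. s100a10a, a small calcium-binding family protein that partners annexins, was at 1.31, 1.59 and 2.02 CPM against 3.82, 4.28, 3.90 and 5.45 CPM (-1.41 ± 0.32, adjusted p = 0.0404).

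FOSL1 was the only DEG of 43 AP-1 and immediate early genes, which had a median of -0.16. Single DEGs also stood in the lists of skeletal muscle, pigment cells and AhR targets, and above in those of interferon response, p53 targets and mitosis. Over all genes tested 0.632% were upregulated and 0.778% downregulated DEGs, so a single DEG is not a result about its list. mybpha, a myosin-binding protein, was the only DEG of 64 skeletal muscle genes, at 0.816, 0.650 and 0.785 CPM against 1.81, 1.95, 2.65 and 2.90 CPM (-1.63 ± 0.35, adjusted p = 0.0320), while 56 of the 64 lay below 0 with a median of -0.42. pnp4a, a purine enzyme of the silvery iridophores, was the only DEG of 37 pigment cell genes, at 14.0, 10.0 and 16.2 CPM against 30.8, 36.4, 37.7 and 43.5 CPM (-1.47 ± 0.28, adjusted p = 0.0214). FOXQ1, a forkhead factor induced by the aryl hydrocarbon receptor (AhR) in zebrafish, was the only DEG of 21 AhR target genes, at 2.56, 1.98 and 2.59 CPM against 5.24, 6.18, 4.03 and 8.72 CPM (-1.34 ± 0.29, adjusted p = 0.0320). It lay lower in the exposed embryos. On the common scale FOXQ1 had a median of 2.73 CPM in the 12 control embryos of the other dyes. The exposed embryos were at 2.025 to 2.60 CPM on that scale. Against the 12 the log2 fold change of FOXQ1 was -0.29 (adjusted p = 0.774). CYP1A1 (ENSDARG00000098315, cyp1a in zebrafish), the cytochrome used as the readout of the AhR, was at 22.0, 35.2 and 37.2 CPM against 51.0, 45.7, 5.57 and 5.08 CPM. Control embryos R1 and R2 were more than 8-fold above R3 and R4, the exposed embryos lay between these pairs, and the log2 fold change was 0.23 ± 0.67 (adjusted p = 0.900).

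Further large falls outside these lists, leaving aside genes that averaged under 1 CPM, were in genes of varied tissues. si:ch211-255g12.6 was at 1.86, 1.79 and 2.12 CPM against 17.0, 31.6, 24.1 and 19.02 CPM (-3.57 ± 0.41, adjusted p = 0.00133). si:dkey-57a22.15 was at 1.98, 3.12 and 0.785 CPM against 13.9, 18.9, 15.5 and 12.8 CPM (-2.97 ± 0.44, adjusted p = 0.00630). Both remained DEGs with each of the 7 embryos left out. CKMT2 (ENSDARG00000069615, 1 of 2 genes of that symbol), a mitochondrial creatine kinase of muscle, was at 0.554, 0.163 and 1.15 CPM against 5.24, 5.55, 6.14 and 4.28 CPM (-3.07 ± 0.60, adjusted p = 0.0225). enam, an enamel matrix gene, was at 0.612, 0.260 and 0.890 CPM against 3.0998, 3.03, 3.46 and 3.43 CPM (-2.45 ± 0.49, adjusted p = 0.0241). epd, ependymin, a secreted glycoprotein of fish brain fluid, was at 0.350, 0.390 and 0.209 CPM against 2.402, 2.41, 2.48 and 2.02 CPM (-2.88 ± 0.56, adjusted p = 0.0214). The controls of all 3 genes lay within 1.5-fold of each other, and the exposed embryos were at or below 1.15 CPM.

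The nuclear genes of the respiratory chain had no DEG but a common direction. Of 78 tested, 76 lay below 0 and 51 had no overlap, with a median of -0.81. Over all 17869 genes tested, 9618 lay below 0 and 11% had no overlap with the exposed embryos lower. The list medians were -0.77, -1.67 and -0.32 in R1, R2 and R3, and R2 was the lowest exposed embryo in 71 of the 78. NDUFB8, a subunit of complex I named after its values were seen, was at 32.0, 12.3 and 53.6 CPM against 74.1, 84.1, 80.0 and 71.8 CPM (-1.25 ± 0.59, adjusted p = 0.323). The exposed embryos differed among themselves by more than 4-fold in this gene, while the controls agreed. Without R2 the list median was -0.54. On the common scale the 12 control embryos of the other dyes had list medians from -0.84 to 0.996 with a median of -0.475, against -0.715, -1.60 and -0.269 in the exposed embryos R1, R2 and R3. R1 and R3 lay within the range of these unexposed embryos and R2 below it. The 13 mitochondrially encoded genes had a median of 0.00 and no DEG. The 36 proteasome genes had no DEG and list medians of -0.17, -0.80 and 0.00 in R1, R2 and R3.

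**Figure D4:**
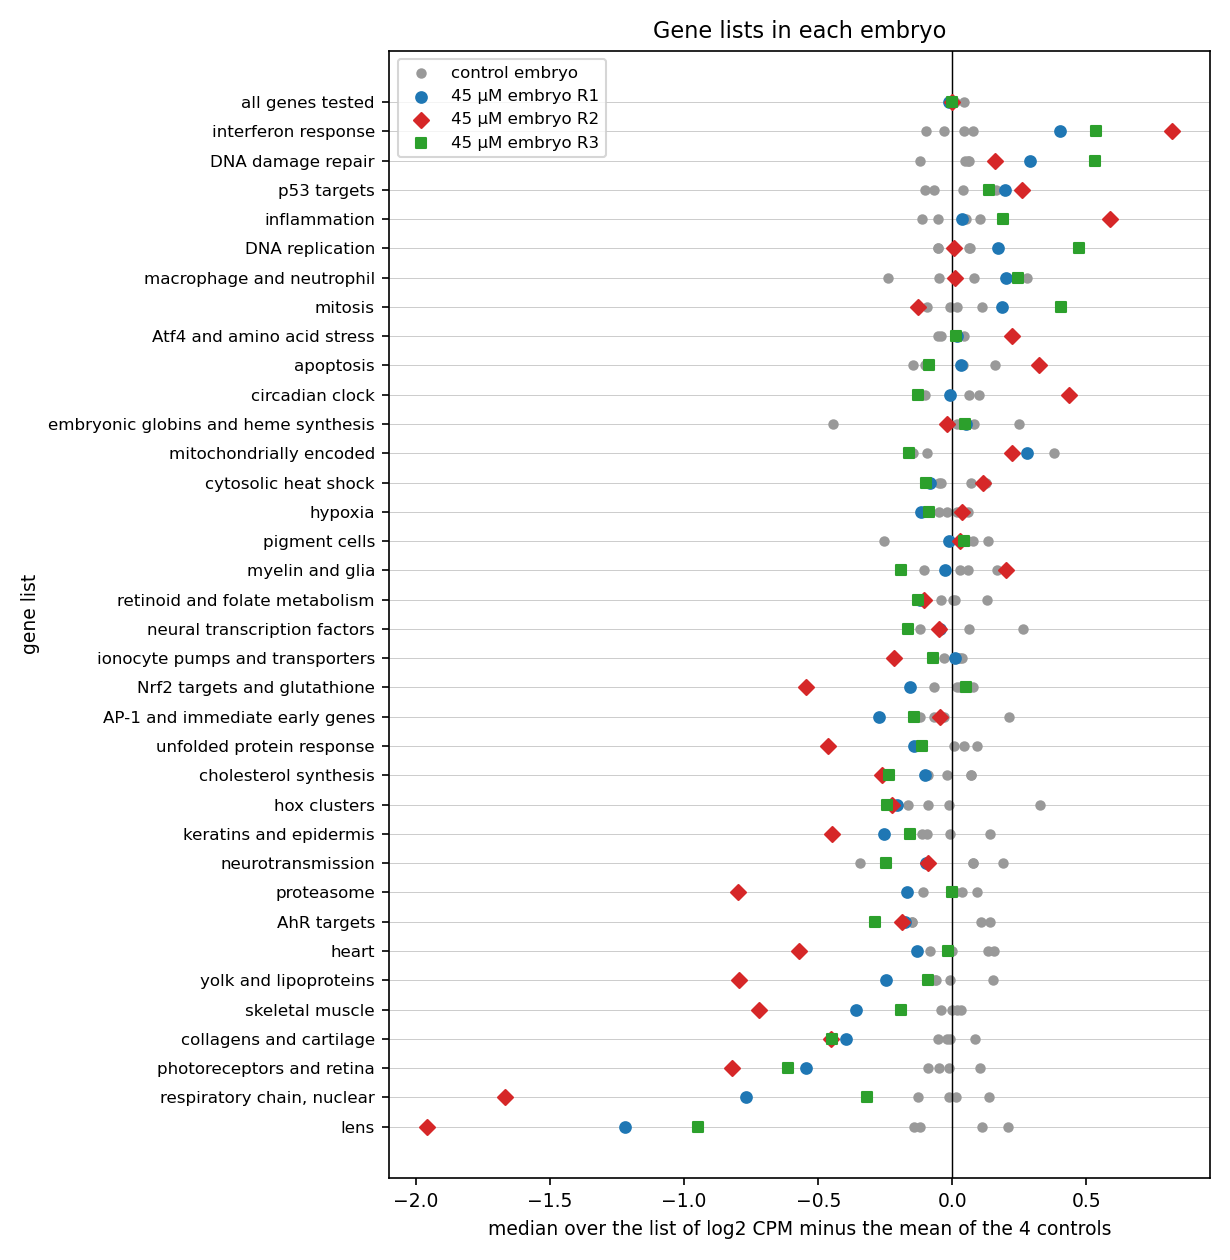
Median of each of the 35 gene lists and of all genes tested in each embryo, as log2 CPM minus the mean of the 4 control embryos (gray circles are controls, colored symbols the exposed embryos R1, R2 and R3). Lens, photoreceptor and collagen lists lay below all controls in the 3 exposed embryos, and R2 lay farthest out in lens (-1.96), respiratory chain (-1.67) and interferon response (0.82).

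The remaining lists had no DEG. Their medians lay between -0.34 for yolk and lipoproteins and 0.21 for macrophage and neutrophil genes. Of 52 genes of Nrf2 targets and glutathione the median was -0.15, of 32 cytosolic heat shock genes -0.01, of 61 retinoid and folate genes -0.09 and of 23 apoptosis genes 0.08. R2 was again the exposed embryo farthest from the controls in yolk and lipoproteins (-0.80), heart (-0.57), Nrf2 targets (-0.55) and circadian clock (0.43), while R3 was at -0.09, -0.02, 0.05 and -0.13 in these lists.

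Between 45 μM and each of the other concentrations there were 0 DEGs. Against 10 and 25 μM, where the libraries carried the index of the controls, 558 and 1542 genes had an unadjusted p under 0.05. The libraries of 35 and 55 μM carried the same index as the 45 μM libraries. Against 35 μM there were 0 DEGs (0% of 17869 genes), with 236 genes at an unadjusted p under 0.05 by edgeR and 5 DEGs by DESeq2. Against 55 μM there were also 0 DEGs (0%), with 119 genes at an unadjusted p under 0.05 and 1 DEG by DESeq2. COL9A1 was at 48.3 ± 4.96 CPM at 35 μM, 35.9 ± 7.72 CPM at 45 μM and 37.4 ± 4.99 CPM at 55 μM (SD, n = 3 each), with a log2 difference of -0.43 ± 0.21 from 35 μM and -0.06 ± 0.21 from 55 μM. crygm2d11 was at 0.972 ± 0.1996, 0.843 ± 0.156 and 1.14 ± 0.483 CPM in that order. mki67 was at 1720 ± 78.9, 1880 ± 134.7 and 1812 ± 45.6 CPM. The differences of 45 μM from 35 and 55 μM in these 3 genes were within about 2 SE. In the control, 10 and 25 μM groups, which shared an index, COL9A1 was at 111.6 ± 16.9, 69.4 ± 18.8 and 58.0 ± 8.02 CPM. In that order crygm2d11 was at 31.5 ± 10.5, 8.94 ± 9.24 and 2.38 ± 1.51 CPM. mki67 was at 986.8 ± 90.2, 1478.5 ± 223 and 1537 ± 138 CPM in these groups. The part of the index was not tested.

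In isg15 and FOSL1 the 45 μM embryos varied widely. isg15 was at 0.779 ± 0.168 CPM at 35 μM, 8.89 ± 13.3 CPM at 45 μM and 0.959 ± 0.352 CPM at 55 μM. FOSL1 was at 3.17 ± 1.08, 30.7 ± 45.6 and 4.11 ± 1.32 CPM. The log2 difference of isg15 at 45 μM was 3.51 ± 0.88 from 35 μM and 3.21 ± 0.86 from 55 μM, and neither passed the test (adjusted p = 1 for both). At 45 μM the SD exceeded the mean in both genes, and the other 2 exposed embryos of that treatment group were near the values of 35 and 55 μM. At 25 μM FOSL1 was at 5.53 ± 6.15 CPM, so its SD exceeded the mean there too. Raised inflammation list medians were not confined to 45 μM embryo R2, which was at 0.59. The list medians were -0.03, 0.22 and 0.82 in 55 μM embryos R1, R2 and R4. At 25 μM embryos R2, R3 and R4 had 0.05, 0.27 and 0.53. At 35 μM embryos R1, R3 and R4 had -0.13, 0.19 and -0.26. Unexposed embryos of other dyes reached such values too. On the common scale 45 μM embryo R2 was at 0.66 and Solvent Red 169 control embryo R1 at 0.72.

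**Figure D5:**
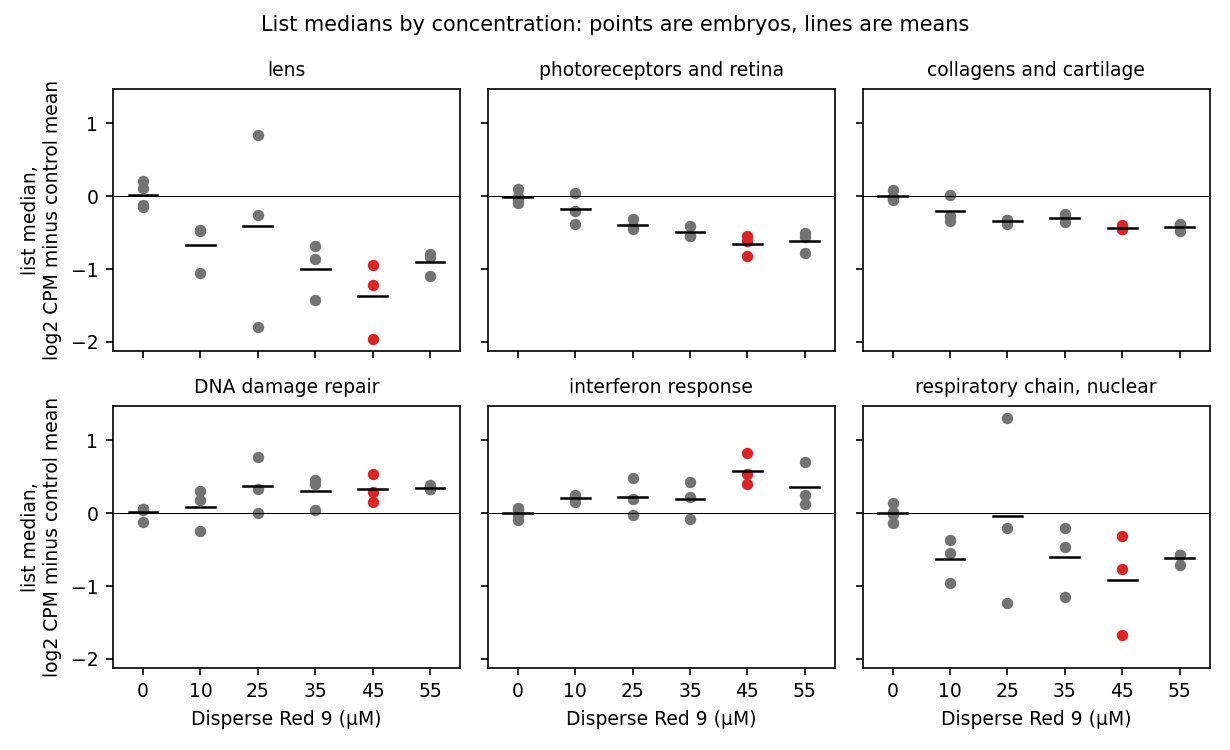
Median of 6 gene lists in each Disperse Red 9 embryo by concentration in μM, as log2 CPM minus the mean of the 4 control embryos (points are embryos, lines are group means, 45 μM in red). Photoreceptor and collagen medians at 45 μM lay beside those at 35 and 55 μM, and lens medians at 25 μM spread from -1.79 to 0.84.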

How the data were processed

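The authors trimmed reads with Trim Galore 0.6.5, quantified them with Salmon 1.1.0 and summed transcripts per gene with tximport, so the deposited main table holds estimated counts for 19913 genes, without normalization. The log2 CPM that the authors deposited, without gene names, were used only in an alternative test. Estimated counts were rounded. In R 4.3.3, edgeR 4.0.16 gave TMM scaling, filterByExpr and the quasi-likelihood test (legacy form) in 1 fit of 19 Disperse Red 9 embryos. The gene length normalization of the study was not applied. Symbols came from a table that named 19164 genes.

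Lists, members and alternatives were chosen with earlier results of these data known. Named genes with a mean of at least 1 CPM were the 10 largest rises and falls among DEGs, up to 4 DEGs per list, 8 genes with R2 farthest above R1 and R3, CYP1A1 and cdkn1a. Others are stated as chosen later. Lists were described without a test. The limit of 3 counts covers counting error only. Alternatives were DESeq2 1.42.0, limma 3.58.1, other scaling, filters, fits and controls, the replicate number as a block, and each embryo left out.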

Additional observations from a re-analysis of the deposited data

Results flagged for a closer look

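Among 57 named genes, the 4 control embryos held 3 with a single embryo far from the other 3, judged by the gap to the nearest embryo as a share of the whole range. In cdkn1a control R1 was at 3.18 CPM and the next embryo at 1.90 CPM, a share of 0.898. In batf2 control R3 was at 0.761 CPM and the next at 0.310 CPM, a share of 0.872. In epd control R4 was at 2.02 CPM and the next at 2.402 CPM, a share of 0.833. Among independent sets of normally distributed values, about 1 in 20 would be flagged. The 57 genes were selected and share the same 4 embryos, so the part of chance was not tested.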

How the results depend on the processing

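The count of 252 DEGs at 45 μM changed with the fit, the controls and the embryos used. DESeq2 gave 840 (431 higher, 409 lower) and, for 45 μM against 35 and 55 μM, 5 and 1. A fit of only the groups compared gave 26 (3 and 23), and a fit without the 25 μM embryos, chosen after seeing the data, gave 1011 (527 and 484). With the replicate number as a block there were 160 DEGs, 64 higher and 96 lower, although replicate numbers did not pair the embryos (correlations of -0.11, -0.16 and -0.27). Controls of 4 dyes gave 65 (57 and 8), and controls of the other 3 dyes gave 5 (4 and 1). Leaving out each embryo gave 6 to 111 DEGs, 0 to 62 higher and 6 to 71 lower. Median-ratio scaling, other filters, newer edgeR and limma gave 223 to 316, within 1.5 times of 252. The causes of these differences were not tested. The direction of si:ch73-335l21.4 turned to -0.17 without exposed R2 (range -0.17 to 2.39 over embryos left out). That of CYP1A1 turned to -0.51 with controls of 4 dyes, -0.77 with controls of the other 3, and -0.11 or -0.086 without control R3 or R4 (range -0.11 to 0.74). The median of all genes stayed between -0.055 and 0.0017.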
